A study of Bos taurus with 25 samples.

Results

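The mammary gland of lactating dairy cows was compared between cows that received any folic acid (vitamin B9) and cows that received none. Of the 25 arrays of the series, 13 were of mammary tissue and 12 of liver, and the 13 mammary arrays were chosen by their labels alone. The 6 arrays of the B9 and B9 + B12 groups were set against the 7 arrays of the Ctl and B12 groups, with vitamin B12 given or not as a covariate. All were multiparous, lactating Holstein cows given weekly intramuscular injections of 5 mL, and biopsies were taken 64 ± 3 days after calving. Ctl cows (3 arrays) received saline, and B12 cows (4 arrays) received 10 mg of vitamin B12 as cyanocobalamin. B9 cows (3 arrays) received 320 mg of folic acid as pteroylmonoglutamic acid, and B9 + B12 cows (3 arrays) received both doses. Rumen bacteria make both vitamins, so that no group was free of them. A biopsy holds all cell types of the gland, and in such bulk tissue fewer cells of a type and less RNA per cell cannot be told apart.

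Folates carry single carbon units in the cell. They deliver them to thymidylate and purine synthesis, and to the remethylation of homocysteine to methionine, for which methionine synthase uses vitamin B12. Methionine then gives S-adenosylmethionine, the methyl donor for DNA, histones, phospholipids and creatine. In lactation the secretory epithelium of the gland draws on amino acids, glucose and fatty acids to make milk protein, lactose and fat.

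Each array gave the brightness of 43653 probes, and the share of probes called well above background by the image software ranged from 64.4% to 76.5%. The median correlation of an array with the other mammary arrays was between 0.986 and 0.991, the lowest being that of B9 cow 57. All arrays were scanned on 1 day, on 5 slides that each held arrays with and without B9. The casein genes *CSN1S1*, *CSN1S2* and *CSN3*, and the α-lactalbumin gene *LALBA*, which define the secretory epithelium, had mean log2 intensities of 18.42 to 18.74, near the top of the scale. The arrays of B9 cow 57 and B9 + B12 cow 31 stood apart in hepatocyte marker genes, and values without them are given beside many of the results. All differences below are on the log2 scale, with B9 minus without B9, and are given as estimate and standard error (SE) from limma.

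For the main effect of B9, 0 of 43653 probes (0%) met the threshold, an adjusted p of 0.05 or lower together with a 2-fold difference. The lowest adjusted p of limma over all probes was 0.854. At an unadjusted p under 0.05 there were 1622 probes (3.72% of all), of which 751 were higher (1.72%) and 871 lower (2%) with B9, and 4 (0.00916%) also differed by 2-fold. With the Cyber-T test, 0 probes passed the same threshold and 1475 had an unadjusted p under 0.05. With each gene represented by its brightest probe, 485 of 11068 genes had an unadjusted p under 0.05 (4.38%), 143 higher (1.29%) and 342 lower (3.09%). The only gene of these that also differed by 2-fold was *IDO1* (0.00904% of genes). The shares of 1.29% and 3.09% are the background of each count of list genes at an unadjusted p under 0.05 below. They were 1.73% and 4.26% without the arrays of cows 57 and 31, and 0.732% and 2.85% with scaling to the 75th percentile.

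The data set a narrow range on most genes. The median width of the 95% interval of a gene was ± 0.18, and this interval excluded a 2-fold difference for 98.4% of genes and a 1.5-fold difference for 91.6%. The median size of the difference was 0.051. Estimates of at least 2-fold were found for 5 genes, *FUT6*, *IDO1*, *MGC151921*, *SCGB2A2* and *TF*. Of all genes, 44.6% had a higher estimate with B9 and the median was −0.01. This balance depended on the scaling, since with the 75th percentile in place of quantiles the median probe differed by −0.12 and 20.1% of the probes at an unadjusted p under 0.05 were higher, against 46.3%.

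**Figure D1:**
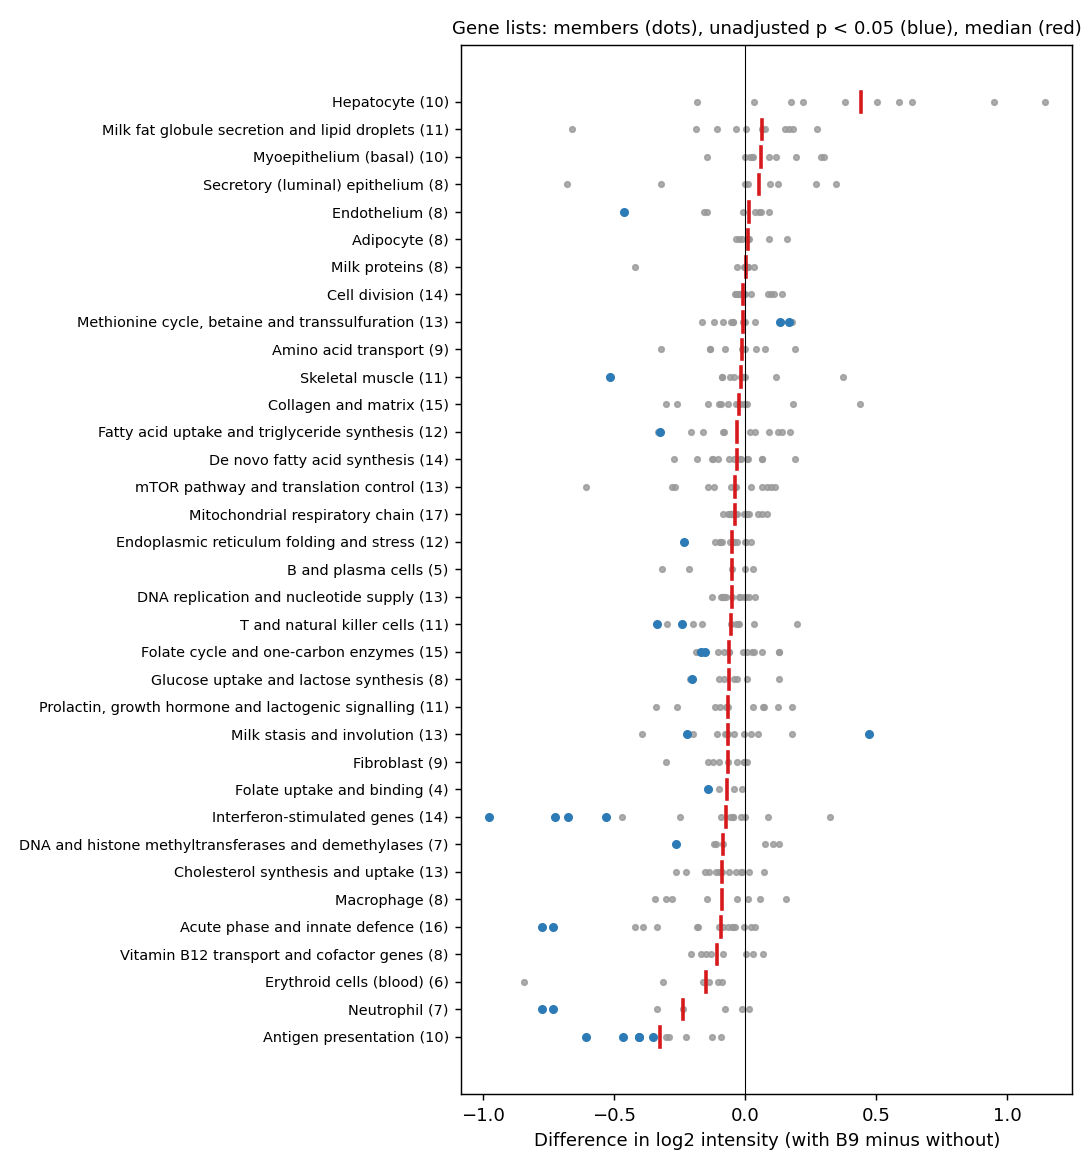
Gene lists (vertical axis, with the number of genes measured) and the log2 difference of each gene between arrays with and without vitamin B9 (horizontal axis). Dots are genes, blue dots have an unadjusted p under 0.05 in limma, and red bars are list medians. Medians range from −0.33 for antigen presentation to 0.44 for hepatocyte markers, and most lie near 0.

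Genes that handle folate had small estimates. The folate cycle list (15 genes matched by symbol) had 6 genes higher and 9 lower, with a median of −0.06 against −0.01 for all genes. None had an unadjusted p under 0.05 among the higher genes, against 1.29% of all genes, and 2 had one among the lower genes, against 3.09%. Without the arrays of cows 57 and 31 there was 1 lower gene at that level, against 4.26% of all genes. *GART*, which catalyses several steps of purine synthesis with a folate cofactor, had values of 8.83, 9.03 and 9.104 without B9 and 8.73, 8.82 and 8.95 with B9 (lowest, median and highest). Its difference was −0.17 (SE 0.05), with overlapping groups and p = 0.01 by exact permutation. Permutation p-values are given for single genes and are not adjusted for their number. The genes were picked by their limma p on the same arrays, so that these p-values are a description. *MTHFD1L*, a mitochondrial formate producing enzyme, differed by −0.15 (SE 0.06), but its other probe differed by 0.03. *TYMS*, the thymidylate synthase, differed by 0.13 (SE 0.09).

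The 4 folate uptake genes that were matched by symbol, of 6 in the list, all had lower estimates with B9 (median −0.07), and 1 had an unadjusted p under 0.05, against 3.09% of all genes in that direction. Without the arrays of cows 57 and 31 the median was −0.22 and 2 genes were at that level, against 4.26% of all genes. The 1 gene was *SLC19A1*, the reduced folate carrier, at 6.68, 6.89 and 6.93 without B9 and 6.57, 6.69 and 6.88 with B9. The groups overlapped, the difference was −0.14 (SE 0.05) with p = 0.0229 by exact permutation, and its other probe differed by 0.05. The folate receptor *FOLR2* differed by −0.04 (SE 0.12) and the proton-coupled transporter *SLC46A1* by −0.01 (SE 0.17). Among B12 transport and cofactor genes, 3 of 8 were higher and 5 lower (median −0.11, or −0.04 without B9 cow 57), and none had an unadjusted p under 0.05. The largest of them were *MMAA* at −0.21 (SE 0.14) and *MMACHC* at −0.17 (SE 0.10), which process cobalamin inside the cell.

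In the methionine cycle list, 6 of 13 genes were higher and 7 lower, with a median of −0.01. The 2 genes at an unadjusted p under 0.05 were *MAT1A* (0.13, SE 0.05) and *BHMT* (0.17, SE 0.07), a methionine adenosyltransferase and the betaine-homocysteine methyltransferase, both known mainly from the liver. Both were higher, as were 1.29% of all genes at that level. *BHMT* was well above background on 0 of 7 arrays without B9 and 3 of 6 with B9, so that its estimate is no measured size. The list held 1 gene at that level without B9 cow 57, 1 without B9 + B12 cow 31, 0 without both arrays and 0 with scaling to the 75th percentile. Methionine synthase, *MTR*, differed by −0.05 (SE 0.05), its reductase *MTRR* by −0.01 (SE 0.07), and *AHCY*, which removes S-adenosylhomocysteine, by −0.08 (SE 0.09).

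Of 7 methyltransferase and demethylase genes measured, 3 were higher and 4 lower (median −0.08, or 0.002 without B9 + B12 cow 31). *PRMT5*, an arginine methyltransferase of histones and splicing proteins, had 10.44, 10.89 and 10.98 without B9 and 10.43, 10.53 and 10.62 with B9. It differed by −0.26 (SE 0.08), with p = 0.00857 by exact permutation and a lower mean with B9 on each of the 5 slides. *DNMT1*, the maintenance DNA methyltransferase, differed by 0.11 (SE 0.13). DNA replication genes were higher in 3 of 13 and lower in 10 of 13 (median −0.05, against −0.01 for all genes), and cell division genes in 6 and 8 of 14 (median −0.01). No gene of either list had an unadjusted p under 0.05, but without the arrays of cows 57 and 31 there were 3 lower DNA replication genes at that level, against 4.26% of all genes.

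Genes of milk synthesis had small estimates for the most part. Of 8 milk protein genes 4 were higher and 4 lower (median 0.00). Those of the 3 caseins, α-lactalbumin, β-lactoglobulin (*PAEP*) and *GLYCAM1* differed by at most 0.03 in either direction, with SE of at most 0.03, and none of their spots was saturated. At the top of the scale quantile normalization gives probes of the same rank the same value on every array, so that the size of these differences and errors is set in part by the scaling. *LALBA* had 18.45, 18.48 and 18.54 without B9 and 18.48, 18.50 and 18.52 with B9, a difference of 0.01 (SE 0.02), or −0.07 with the processed signal scaled to the 75th percentile. The exception in spread was lactoferrin, *LTF*, an iron-binding defence protein of milk, at 16.08, 16.97 and 17.54 without B9 and 13.87, 17.26 and 17.65 with B9. It differed by −0.42 (SE 0.55), with 0.66 for B9 minus Ctl and −1.37 for B9 + B12 minus B12.

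In glucose uptake and lactose synthesis 2 of 8 genes were higher and 6 lower (median −0.06). *SLC2A8*, a glucose transporter of the gland, differed by −0.20 (SE 0.09) with p = 0.0757 by exact permutation, and *B4GALT1*, the galactosyltransferase of lactose synthase, by 0.13 (SE 0.25). De novo fatty acid synthesis had 5 higher and 9 lower of 14 genes (median −0.03, or −0.01 without B9 cow 57), led by *ACSS2*, which activates acetate, at −0.27 (SE 0.24). Fatty acid uptake and triglyceride synthesis was even, with 6 and 6 of 12 (median −0.03), or 7 and 5 without the arrays of cows 57 and 31. Within it *GPAT4*, a glycerol-phosphate acyltransferase, differed by −0.33 (SE 0.15, exact permutation p = 0.0671), *FABP3*, the fatty acid binding protein, by −0.21 (SE 0.10) and *CD36*, a fatty acid carrier, by 0.17 (SE 0.09). In limma 1 gene of this list was lower at an unadjusted p under 0.05, against 3.09% of all genes. Without B9 + B12 cow 31 it was instead 1 higher, against 1.39% of all genes. The same count was found without cows 57 and 31, against 1.73%. Scaling to the 75th percentile gave 0 in either direction.

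Milk fat globule genes were higher in 7 and lower in 4 of 11 (median 0.06), or 9 and 2 without the arrays of cows 57 and 31 (median 0.10), with 0.18 (SE 0.14) for *XDH* and 0.17 (SE 0.11) for *MUC15*, both of the globule membrane. Cholesterol synthesis had 2 higher and 11 lower of 13 (median −0.09), or 5 and 8 without B9 cow 57 (median −0.007) and without both arrays (median −0.02), with *SQLE* at −0.23 (SE 0.12) and *FDPS* at −0.27 (SE 0.15), and none at an unadjusted p under 0.05. Amino acid transport had 3 higher and 6 lower of 9 (median −0.01), or 6 and 3 without B9 + B12 cow 31, mTOR and translation control 5 and 8 of 13 (median −0.04, or −0.01 without cows 57 and 31), and the respiratory chain 6 and 11 of 17 (median −0.04), or 9 and 8 without the arrays of cows 57 and 31. In lactogenic signalling 5 of 11 were higher and 6 lower (median −0.06), and *ELF5*, a transcription factor of the secretory epithelium, was at 15.14, 15.23 and 15.57 without B9 and 15.04, 15.38 and 15.62 with B9. None of these lists had a gene at an unadjusted p under 0.05. Without the arrays of cows 57 and 31, lactogenic signalling had 7 higher and 4 lower, with 1 in each direction at that level.

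Folding and stress genes of the endoplasmic reticulum had 3 higher and 9 lower of 12 (median −0.05), and 1 at an unadjusted p under 0.05, the disulfide isomerase *PDIA4* (−0.23, SE 0.09), against 3.09% of all genes lower at that level. With scaling to the 75th percentile there was 0. The median of the list was 0.14 for B9 minus Ctl and −0.20 for B9 + B12 minus B12. Of 13 milk stasis and involution genes, 4 were higher and 9 lower (median −0.06). *FAS*, a death receptor, was higher with B9 at 8.08, 8.92 and 9.03 against 7.94, 8.27 and 8.76, a difference of 0.47 (SE 0.18, exact permutation p = 0.04). *STAT3*, a transcription factor active in involution, differed by −0.22 (SE 0.10), with p = 0.0557 by exact permutation. In limma 1 gene of the list was higher and 1 lower at an unadjusted p under 0.05, against 1.29% and 3.09% of all genes. With the slide as a fixed block 0 were higher and 0 lower, against 2.18% and 4.69%. Scaling to the 75th percentile gave 1 higher and 0 lower, against 0.732% and 2.85%.

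The list that stood lowest was antigen presentation. All 10 genes measured had lower estimates with B9, with a median of −0.33 against −0.01 for all genes, and 5 had an unadjusted p under 0.05 against 3.09% of all genes in that direction. *TAP1*, which pumps peptides into the endoplasmic reticulum for MHC class I, had 7.77, 7.95 and 8.32 without B9 and 7.38, 7.60 and 7.81 with B9. The highest B9 array lay just above the lowest array without B9. Its difference was −0.40 (SE 0.11) with p = 0.00857 by exact permutation, seen on all 5 slides, and in 2 of its 3 probes.

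*PSMB8*, a subunit of the immunoproteasome that cuts such peptides, had 11.003, 11.44 and 11.80 against 10.88, 10.98 and 11.28 with B9. The groups overlapped, with a difference of −0.40 (SE 0.13, exact permutation p = 0.0214). The MHC class II genes *BOLA-DRA* and *CD74*, the invariant chain, differed by −0.47 (SE 0.18) and −0.35 (SE 0.15), and the class I gene *BOLA* by −0.61 (SE 0.26). MHC genes are a family of similar sequences, and their probes may bind more than 1 of them. *B2M*, the common light chain of class I, differed by −0.23 (SE 0.18), *TAP2* by −0.09 (SE 0.20) and *BOLA-DQB* by −0.13 (SE 0.28). For *TAP1* and *PSMB8* the difference was of similar size without B12 (−0.32 and −0.39) and with it (−0.48 and −0.41).

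The mean level of the antigen presentation list on each array was 11.26, 11.52 and 11.84 without B9 and 10.91, 11.10 and 11.53 with B9 (lowest, median and highest). Of the B9 arrays, 4 lay below all 7 arrays without B9, and those of B9 cow 41 and B9 + B12 cow 31 lay among them. The number of its genes at an unadjusted p under 0.05 was 3 without B9 cow 57, 6 without B9 + B12 cow 31, 6 without both arrays and 6 with the slide as a block, all of them lower. With both arrays left out, 4.26% of all genes were lower at that level. After scaling to the 75th percentile the median was −0.30, and 5 genes were again at that level.

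Of the 14 interferon-stimulated genes measured, 2 were higher and 12 lower with B9 (median −0.07), and 4 had an unadjusted p under 0.05, all lower, where 3.09% of all genes were lower at that level. With scaling to the 75th percentile 5 were lower at that level, against 2.85% of all genes, and the median was −0.24, where that of all genes was −0.08. *ISG15*, a ubiquitin-like protein induced by interferon, had 8.21, 8.83 and 10.49 without B9 and 7.99, 8.14 and 8.73 with B9, a difference of −0.98 (SE 0.32, exact permutation p = 0.0229). Its highest values were those of B12 cows 37 (10.49), 36 (9.97) and 52 (9.81), while Ctl cows were at 8.21 to 8.83. Accordingly it differed by −0.23 for B9 minus Ctl and by −1.63 for B9 + B12 minus B12, with an unadjusted limma p of 0.0228 for the interaction over the 13 arrays.

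*IFI6* and *IFI27* encode interferon-induced mitochondrial proteins. *IFI6* had 10.02, 10.30 and 11.43 without B9 and 9.34, 9.87 and 10.27 with B9, and differed by −0.67 (SE 0.22, exact permutation p = 0.0157). *IFI27* differed by −0.53 (SE 0.15, exact permutation p = 0.0114). For both, the estimate was larger with B12 (−1.004 and −0.78) than without it (−0.30 and −0.25), with an unadjusted limma p of 0.115 and 0.0862 for the interaction over the 13 arrays. *UBA7*, the activating enzyme that attaches ISG15 to proteins, differed by −0.61 (SE 0.20, exact permutation p = 0.0271), with −0.21 without B12 and −0.96 with it. The 2 higher genes of the list were *HERC6* at 0.32 (SE 0.21) and *IRF7* at 0.09 (SE 0.16).

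*IDO1*, which degrades tryptophan and is induced by interferon γ, had the largest lower estimate of the named genes. It was at 7.75, 7.81 and 10.52 without B9 and 6.53, 6.88 and 7.75 with B9, and only arrays at 7.75 met between the groups. The difference was −1.29 (SE 0.46), a 2.45-fold lower level, with a 95% interval of −2.30 to −0.28 and p = 0.0286 by exact permutation. B12 cows 52 (10.52) and 36 (9.26) were far above the other arrays without B9, and the difference was −0.48 for B9 minus Ctl and −2.01 for B9 + B12 minus B12. The adjusted p of limma was 1 for *IDO1* and for each gene of the interferon and antigen presentation lists named here.

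Acute phase and innate defence genes were higher in 2 and lower in 14 of 16 (median −0.09), with 2 at an unadjusted p under 0.05, both lower, against 3.09% of all genes. The 2 genes were the calgranulins *S100A12* and *S100A8*, calcium-binding proteins of neutrophils, which the neutrophil marker list also holds. There was 1 such gene without B9 cow 57, 1 without B9 + B12 cow 31 and 0 without both arrays, where the list median was −0.18, −0.13 and −0.20 in this order. With scaling to the 75th percentile 5 were lower at that level, against 2.85% of all genes, and the median was −0.25. *S100A12* had 8.50, 8.84 and 9.84 without B9 and 7.94, 8.22 and 8.97 with B9, a difference of −0.77 (SE 0.27, exact permutation p = 0.0257), which was −0.94 to −0.65 over the alternatives and single arrays left out. *S100A8* differed by −0.73 (SE 0.31, exact permutation p = 0.04). With B12 the estimates were −1.18 and −1.18, and without it −0.31 and −0.22, with an unadjusted limma p of 0.107 and 0.124 for the interaction over the 13 arrays. The complement gene *C4A* differed by −0.92 (SE 0.36) and *SERPING1*, the inhibitor of complement C1, by −0.54 (SE 0.21), with exact permutation p of 0.04 and 0.0543. With its probes averaged *C4A* differed by −0.54. At its brightest probe *C4A* differed by −0.22 without B12 and −1.54 with it, and *SERPING1* by −0.83 and −0.28.

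More markers of each immune cell type were lower than higher, as were 6135 of all 11068 genes. Of 7 neutrophil markers 6 were lower with B9 (median −0.24), 2 of them at an unadjusted p under 0.05 (3.09% of all genes), and their mean level was 7.09 to 7.75 without B9 and 6.75 to 7.34 with B9. Of 8 macrophage markers 5 were lower (median −0.09, mean levels 9.34 to 9.84 and 9.27 to 9.65). Of 11 T and natural killer cell markers 9 were lower (median −0.05, mean levels 8.44 to 8.91 and 8.13 to 8.79), with *NKG7* at −0.24 (SE 0.08) and *CD247* at −0.33 (SE 0.15) under an unadjusted p of 0.05, against 3.09% of all genes lower at that level. Without B9 cow 57 there was 1 higher and 1 lower T or natural killer cell marker at that level. Of 5 B and plasma cell markers 4 were lower (median −0.05, mean levels 7.84 to 8.36 and 7.47 to 8.18). For B9 minus Ctl the median was −0.31 for T and natural killer cell markers and −0.25 for B and plasma cell markers. For B9 + B12 minus B12 these medians were on the higher side, at 0.07 and 0.04. Neutrophil markers had medians of −0.19 and −0.26, and macrophage markers −0.07 and −0.16, without B12 and with it. The ranges overlapped for each cell type, and the part of cell numbers in the lower antigen presentation and interferon values was not tested. Macrophage and B and plasma cell markers had 0 genes at an unadjusted p under 0.05 in limma. Without the arrays of cows 57 and 31, 3 of 7 neutrophil markers were higher, 1 of them at an unadjusted p under 0.05, and 4 were lower, 0 at that level, while the median was −0.27. All genes then had 1.73% higher and 4.26% lower at that level. With scaling to the 75th percentile all 7 neutrophil markers were lower, 3 of them at that level, against 2.85% of all genes. Without both arrays, T and natural killer cell markers were higher in 6 and lower in 5 of 11, with a median of 0.003 and 1 lower at that level. B and plasma cell markers were in that case higher in 3 and lower in 2 of 5, and macrophage markers in 4 and 4 of 8 (median −0.11).

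**Figure D2:**
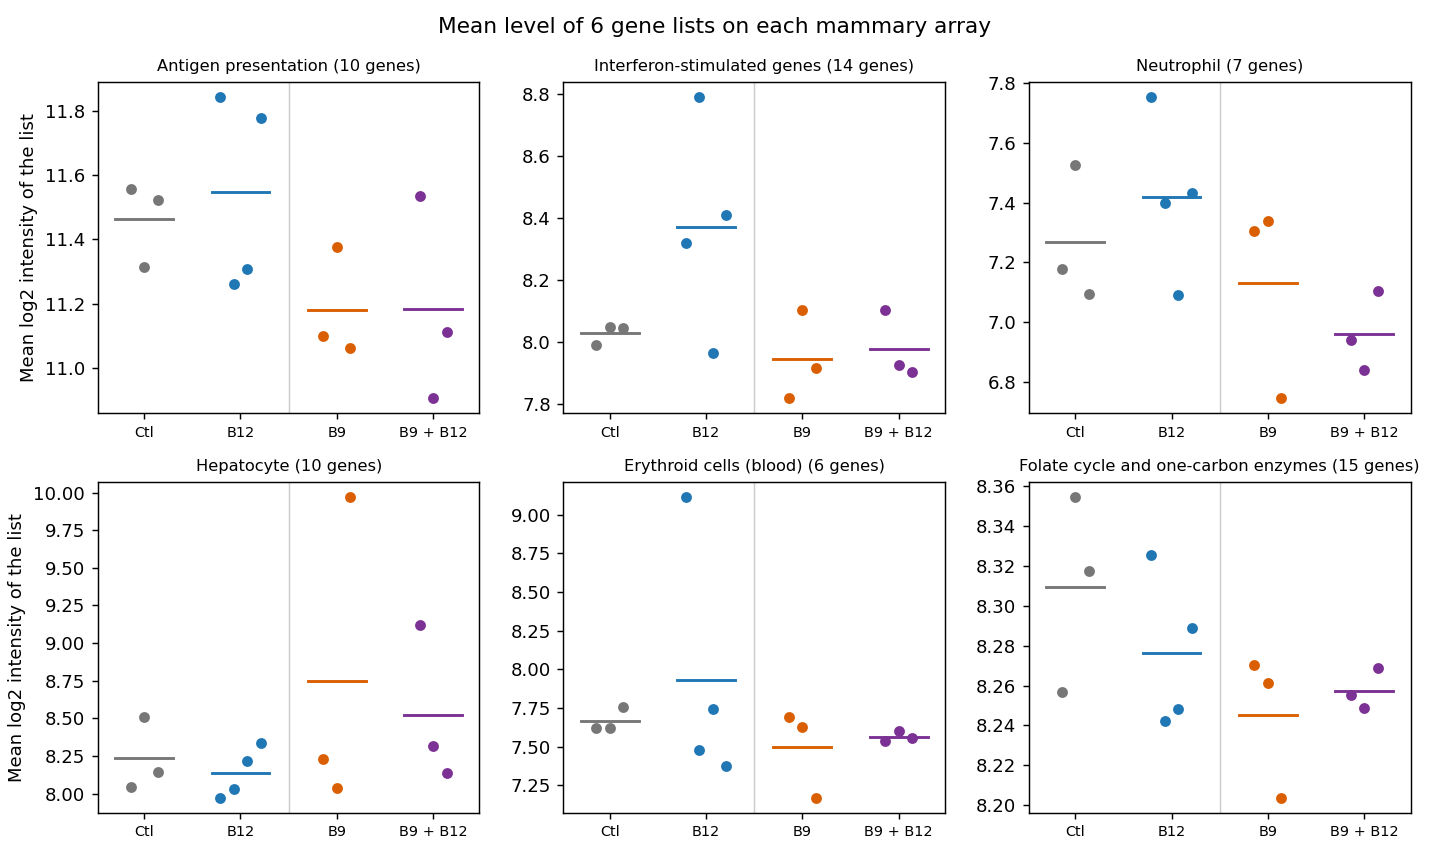
Mean log2 intensity of 6 gene lists (vertical axes) on each mammary array, by group (horizontal axes). Dots are arrays, short lines are group means, and the vertical line parts arrays without B9 from arrays with it. Antigen presentation spans 11.26 to 11.84 without B9 and 10.91 to 11.53 with B9, hepatocyte markers are highest for B9 cow 57 (9.97), and erythroid markers for B12 cow 36 (9.11).

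Markers of the other cell types gave no common direction. Secretory epithelium markers were higher in 5 and lower in 3 of 8 (median 0.05), with *KRT18* at −0.68 (SE 0.43) and *EPCAM* at 0.27 (SE 0.14). With the arrays of cows 57 and 31 left out, 2 of the list were lower at an unadjusted p under 0.05, against 4.26% of all genes. With scaling to the 75th percentile 2 were higher and 0 lower at that level in limma, against 0.732% of all genes higher. Myoepithelium markers were higher in 8 and lower in 2 of 10 (median 0.06), or 4 and 6 without the 2 arrays. Fibroblast markers were higher in 1 and lower in 8 of 9 (median −0.07), and collagen and matrix genes in 3 and 12 of 15, or 7 and 8 without B9 cow 57. The collagen and matrix list had a median of −0.02, which was 0.22 for B9 minus Ctl and −0.29 for B9 + B12 minus B12. Without cows 57 and 31 the medians of the fibroblast and the collagen and matrix lists were −0.13 and −0.08. Endothelium markers were even (4 and 4 of 8), with *CLDN5*, a tight junction gene, at −0.46 (SE 0.17). Adipocyte markers were higher in 5 and lower in 3 of 8, and skeletal muscle markers in 2 and 9 of 11, with *DES*, the intermediate filament of muscle, at −0.51 (SE 0.21). When both arrays were left out, endothelium markers were higher in 1 and lower in 7, and skeletal muscle markers in 5 and 6. All 6 erythroid markers were lower with B9 (median −0.15, mean levels 7.37 to 9.11 and 7.17 to 7.69), and *HBB*, a β-globin, reached 12.24 without B9, where the median was 6.70. With both arrays left out, 2 erythroid markers were higher and 4 lower (median −0.09).

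The groups did not overlap for 12 of 11068 genes (0.108%), with 3 above (0.0271%) and 9 below (0.0813%) when B9 was given. Of these, 8 were well above background, and 4 were not. The 8 genes were chosen for this separation after their values were seen, so that their sign within a B12 level or on a slide was fixed by the choice. No permutation p is given for them, and their limma p-values, adjusted over all probes, are a description. Their estimates and 95% intervals are a description too, since a choice for separation favours large differences. The largest difference was that of *PLAC8B*, a member of the placenta-specific 8 family, at 8.80, 8.83 and 9.95 without B9 and 7.82, 8.14 and 8.66 with B9. Every B9 array thus lay below every other array. The difference was −0.91 (SE 0.20), a 1.88-fold lower level, with a 95% interval of −1.34 to −0.47. It was −0.57 without B12 and −1.20 with it, its other probe was lower too, and the adjusted p of limma over all probes was 1.

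*GK* encodes glycerol kinase, which makes glycerol 3-phosphate. It was at 8.57, 8.70 and 8.95 without B9 and 8.19, 8.35 and 8.45 with B9, a difference of −0.38 (SE 0.07). All 3 of its probes were lower with B9, and its adjusted limma p of 0.858 was the lowest of the genes. *SLC5A6*, the sodium-dependent carrier of biotin and pantothenate, was at 9.62, 9.68 and 9.85 against 9.08, 9.37 and 9.59 with B9. It differed by −0.36 (SE 0.08), with lower estimates in all 3 probes, and by −0.18 when these were averaged. The estimates of *GK* and *SLC5A6* were −0.31 and −0.26 without B12, and −0.44 and −0.44 with it.

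*NET1*, an exchange factor that activates the GTPase RhoA, lay above. It had 11.11, 11.46 and 11.70 without B9 and 11.78, 11.84 and 12.18 with B9, a difference of 0.49 (SE 0.11) with a 95% interval of 0.25 to 0.73. All 4 probes of *NET1* were higher, by 0.19 to 0.53. A dimmer probe of the gene had the lowest p of all probes on the array, with an adjusted limma p of 0.854. Without the array of B9 cow 41 this probe differed by 0.60 with an adjusted limma p of 0.0132, and it was then the only probe past an adjusted p of 0.05, at less than 2-fold.

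The other non-overlapping genes differed by small amounts. *ILF2*, a double-stranded RNA binding protein, differed by −0.21 (SE 0.05), *NOP16*, of ribosome assembly, by −0.18 (SE 0.04), and *PSMG2*, a chaperone of proteasome assembly, by −0.18 (SE 0.04). *PMPCB*, a subunit of the peptidase that trims proteins imported into mitochondria, differed by 0.17 (SE 0.06) and was higher in all 5 probes. For *PMPCB* the difference was 0.10 without B9 + B12 cow 32.

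**Figure D3:**
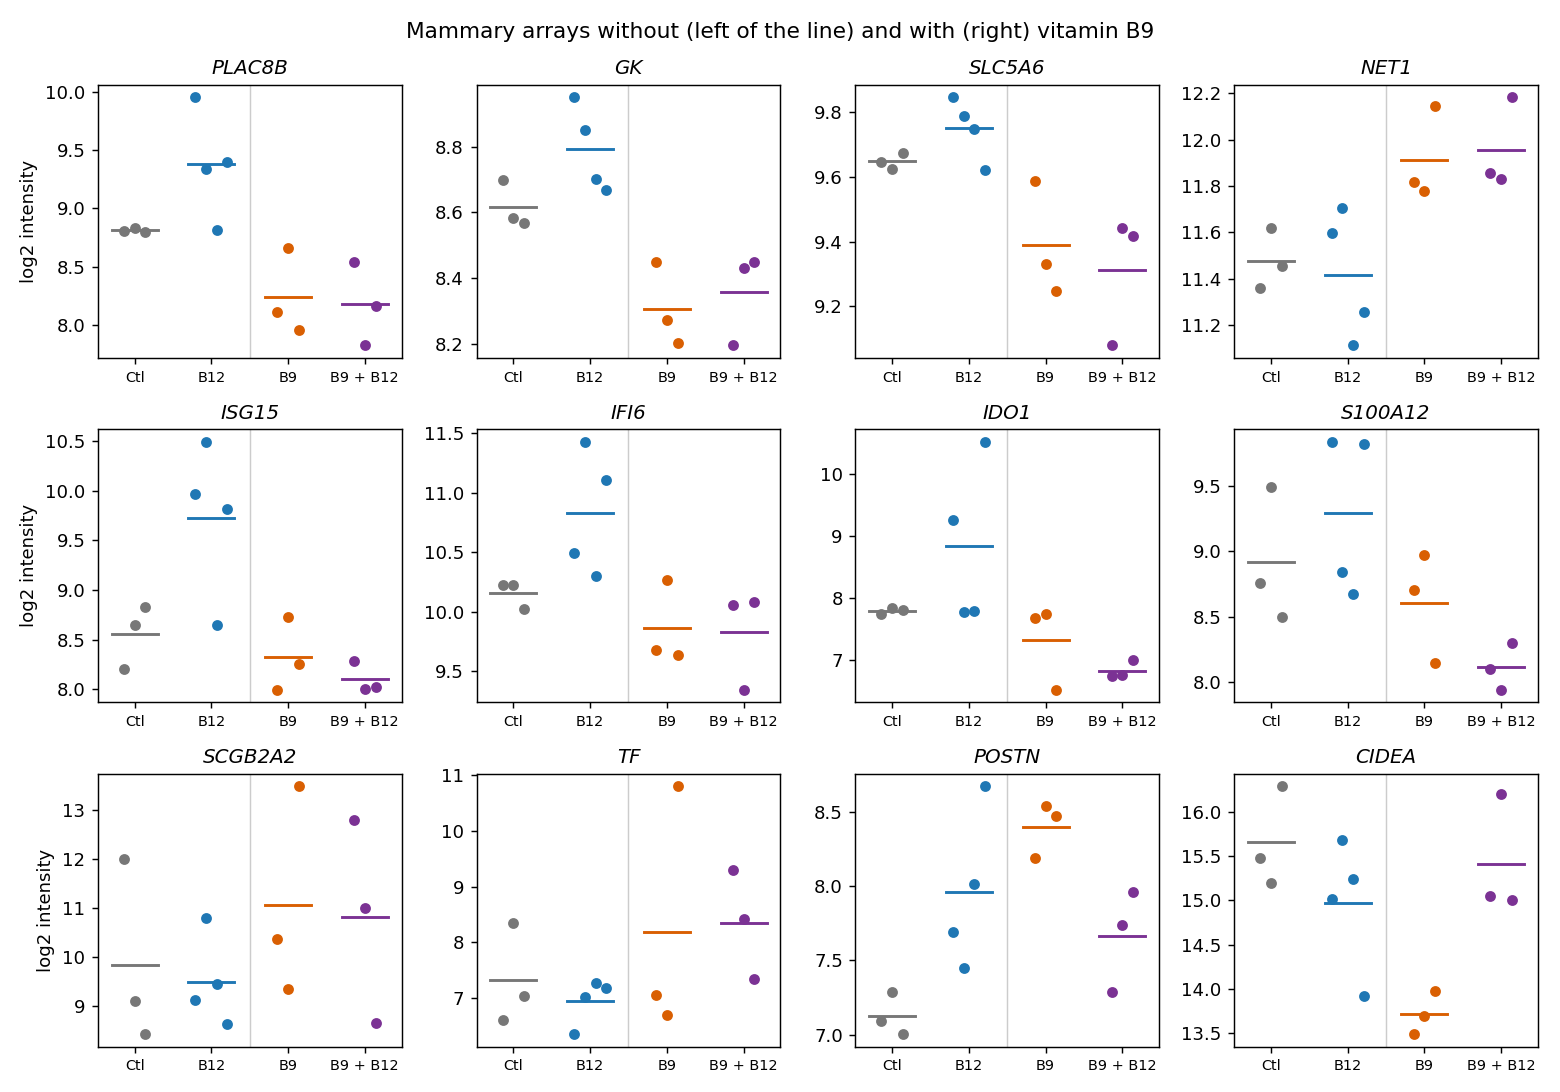
Log2 intensity of 12 genes (vertical axes) on each of the 13 mammary arrays, by group (horizontal axes). Dots are arrays, short lines are group means, and the vertical line parts arrays without B9 from arrays with it. All B9 arrays lie below the others for PLAC8B, GK and SLC5A6 and above them for NET1, while ISG15 and IDO1 are highest in B12 cows.

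Further genes with the same sign without and with B12 and an estimate of at least 0.5 were named in order of their unadjusted p, none of them past the threshold. Among the lower ones, *WDR91*, of endosome maturation, was at 10.24, 10.34 and 10.81 without B9 and 9.49, 9.86 and 10.38 with B9, a difference of −0.53 (SE 0.16, exact permutation p = 0.0171). *ARG2*, the mitochondrial arginase, differed by −0.78 (SE 0.30, exact permutation p = 0.0129), by −0.89 without B12 and −0.69 with it, and by −0.29 without the arrays of cows 57 and 31. The range of *ARG2* was 9.57 to 10.28 without B9 and 8.04 to 10.22 with B9, and cow 57 (8.04) and cow 31 (8.41) were its lowest arrays. *AQP1*, a water channel of endothelium and red blood cells, differed by −0.61 (SE 0.24, exact permutation p = 0.04).

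Among the higher ones, *DDR2*, a collagen receptor kinase, was at 7.11, 7.31 and 7.55 without B9 and 7.30, 7.76 and 8.599 with B9, a difference of 0.59 (SE 0.22, exact permutation p = 0.0171), similar without B12 (0.52) and with it (0.66). *ERBB3*, a receptor of neuregulins, differed by 0.52 (SE 0.22, exact permutation p = 0.0586), and by 0.28 with its probes averaged. The secretoglobin *SCGB1D* was at 13.93, 14.91 and 16.56 against 15.42, 15.88 and 16.58 with B9, a difference of 0.89 (SE 0.46, exact permutation p = 0.104). A second secretoglobin, *SCGB2A2*, ranged from 8.41 to 12.01 without B9 and from 8.64 to 13.49 with B9. Its difference of 1.27 (SE 0.86) had a 95% interval of −0.60 to 3.15 and p = 0.199 by exact permutation. It was 0.78 without B9 cow 57, 0.80 without B9 + B12 cow 31 and 0.18 without both arrays.

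The other higher genes were *CRISP3*, a secreted protein of exocrine glands (0.53, SE 0.28), *RRAGD*, a GTPase of amino acid sensing (0.52, SE 0.29), *GSTO1*, a glutathione transferase (0.74, SE 0.54), and *SORBS3*, an adaptor of cell adhesion (0.69, SE 0.55). For *SORBS3* the other probe differed by −0.03. Single arrays moved each of them. *RRAGD* was at 11.20 in B9 cow 39 while the next B9 array was at 9.75, and it differed by 0.24 without cow 39. *SORBS3* differed by 0.37 without cow 39 and 0.46 without B9 cow 41, *GSTO1* by 0.24 without Ctl cow 43 and *CRISP3* by 0.32 without B12 cow 36.

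**Figure D4:**
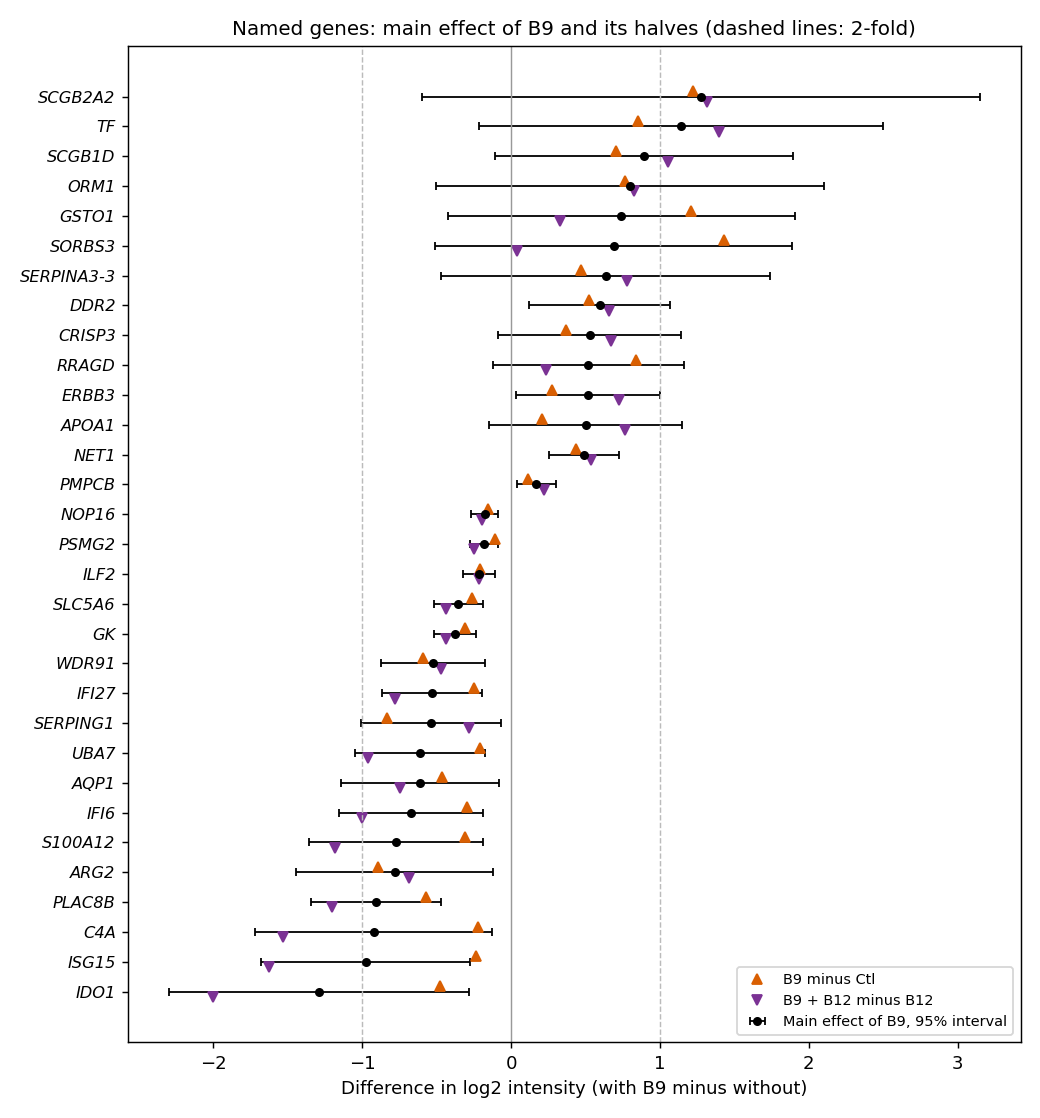
Log2 difference between arrays with and without B9 (horizontal axis) for each named gene (vertical axis). Black points with bars are the main effect with its 95% interval, upward triangles are B9 minus Ctl, downward triangles are B9 + B12 minus B12, and dashed lines mark 2-fold. PLAC8B lies at −0.91 with an interval of −1.34 to −0.47, and the interval of SCGB2A2 runs from −0.60 to 3.15. The genes were chosen by their values on these arrays, so that the intervals are a description.

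Several of the remaining higher genes encode plasma proteins of the liver. *TF*, transferrin, was at 6.35, 7.03 and 8.35 without B9 and 6.69, 7.88 and 10.80 with B9, a difference of 1.14 (SE 0.62, exact permutation p = 0.111), and all 6 of its probes were higher. *ORM1* and *SERPINA3-3*, acute phase proteins, differed by 0.80 (SE 0.60) and 0.64 (SE 0.51), and *APOA1*, of high density lipoprotein, by 0.50 (SE 0.30). The highest arrays of *TF* were those of B9 cow 57 (10.80) and B9 + B12 cow 31 (9.29), and cow 31 was also the highest for *APOA1*, at 10.97. Without B9 cow 57 the estimates were 0.63 for *TF*, 0.25 for *ORM1* and 0.17 for *SERPINA3-3*, and without cow 31 that of *APOA1* was 0.16. Without both arrays they were 0.27 for *TF*, 0.03 for *ORM1*, −0.05 for *SERPINA3-3* and 0.13 for *APOA1*. With all probes of the gene averaged *TF* differed by 0.56, and with the processed signal *ORM1* differed by 1.21.

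The hepatocyte marker list, which holds *TF* and *APOA1* itself, moved with them. Of its 10 genes 9 were higher and 1 lower, with a median of 0.44 and none at an unadjusted p under 0.05. Its mean level was 7.97 to 8.51 without B9 and 8.04 to 9.97 with B9, where cow 57 was at 9.97, cow 31 at 9.12 and the others at 8.04 to 8.31. The defining genes *ALB*, *AHSG*, *FGA* and *FGB* were well above background only on some arrays of each group, with *ALB* at 6.11, 6.33 and 7.07 without B9 and 6.06, 6.68 and 10.56 with B9. The median of the list was 0.13 without cow 57, 0.27 without cow 31 and 0.04 without both, with 6 genes higher and 4 lower in the last case.

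The comparison consists of a part without B12 and a part with B12 that share no cow. B9 minus Ctl gave 1112 probes at an unadjusted p under 0.05 (2.55%) and B9 + B12 minus B12 gave 2033 (4.66%), with 0 past the threshold in each. The estimates of both parts had the same sign in 48.7% of probes, with a Pearson correlation of −0.021 and a Spearman correlation of −0.030 over 43652 probes, which are not independent of each other. Of the probes at an unadjusted p under 0.05, 125 were shared, 11.2% of the first and 6.15% of the second, and 67 of these had the same sign. The interaction gave 1377 probes at an unadjusted p under 0.05 (3.15%) and 0 past the threshold by limma.

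**Figure D5:**
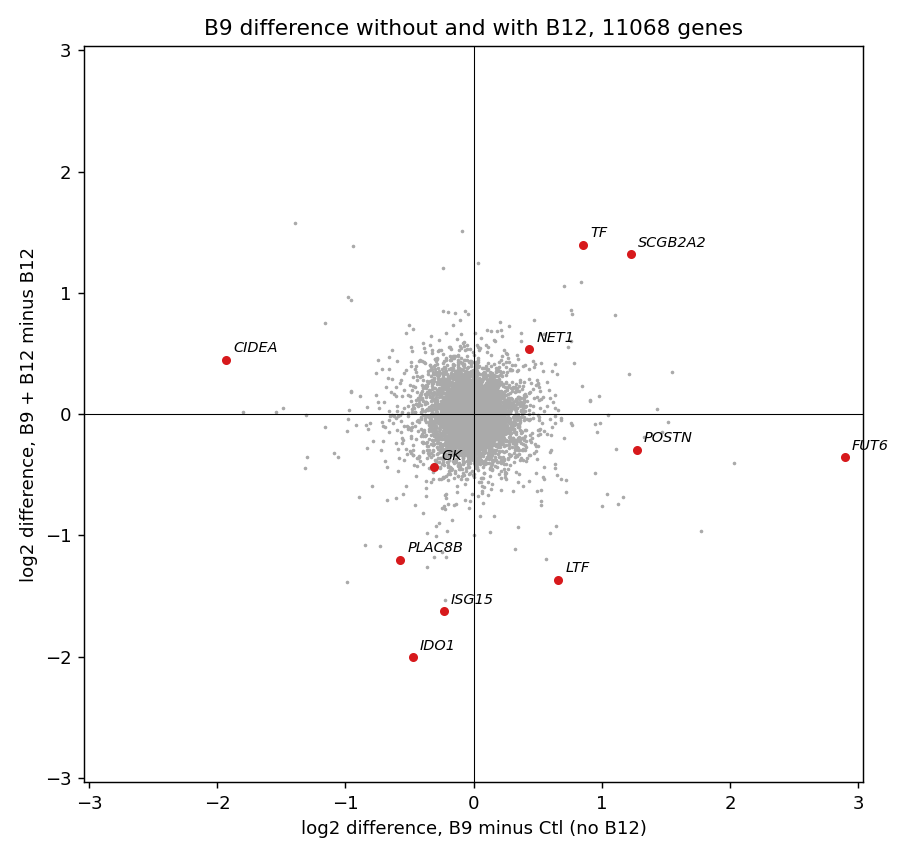
Log2 difference of B9 minus Ctl (horizontal axis) against B9 + B12 minus B12 (vertical axis), which share no cow. Grey dots are the 11068 genes and red dots are genes named in the text. The Pearson correlation across genes is −0.039, PLAC8B, GK and NET1, chosen for their separation, lie in the quadrants of like sign, and CIDEA, FUT6 and POSTN lie in the quadrants of opposite sign.

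The study named some genes for folic acid in the gland from these arrays, which are no independent evidence of their direction, and picked others as candidates for their role in pathways of the vitamins. Of 10 such genes 6 were matched by symbol here, 5 with higher and 1 with lower estimates and none at an unadjusted p under 0.05. The study also used qPCR on all its cows, more than had arrays. By qPCR it reported *POSTN* as higher with B9 than in control cows, while *CIDEA* was measured and not among the genes reported as changed. *POSTN*, a matrix protein, was at 7.002 to 7.29 in Ctl cows and at 8.19 to 8.54 in B9 cows, a difference of 1.27, but at 7.45 to 8.67 in B12 cows and 7.29 to 7.96 in B9 + B12 cows, a difference of −0.29. *CIDEA*, which acts in lipid droplet fusion and milk fat secretion, differed by −1.93 without B12 and 0.45 with it, and 2 of its 4 probes had the opposite signs. *FUT6*, a fucosyltransferase that the study calls *FUT5*, a synonym of this gene in the RefSeq table, differed by 2.89 without B12 and by −0.35 with it. Its probe was not well above background in Ctl cow 51 and was at 6.16 in Ctl cow 43 and 9.07 in Ctl cow 42, so that the first of these values is no measured size. The main effects were 0.44 (SE 0.29), −0.66 (SE 0.46) and 1.16 (SE 0.81), in this order. With all probes averaged *POSTN* differed by 0.28 and *CIDEA* by −0.16, and *FUT6* differed by 0.76 without Ctl cow 51, 1.89 without B9 + B12 cow 38 and 2.11 with the processed signal. The unadjusted limma p of the interaction over the 13 arrays was 0.00157 for *POSTN*, 0.00308 for *CIDEA* and 0.0394 for *FUT6*, and none passed the adjustment over all probes. The study named these genes for B9 against Ctl on these arrays, and that contrast is part of the interaction. These p-values are therefore a description and no test of whether B12 alters the B9 effect.

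The same cows were sampled in the liver in 12 of 13 cases, and the difference of the B9 effect between mammary gland and liver was tested. No probe passed the threshold, the lowest adjusted limma p was 0.476, and 4533 probes had an unadjusted p under 0.05 (10.4%). *NET1* differed by 0.49 (SE 0.11) in the mammary gland and by −0.29 (SE 0.14) in the liver, a difference between tissues of 0.78 (SE 0.19). *AQP1* differed by −0.61 in the mammary gland and 0.44 (SE 0.23) in the liver, and *XDH* by 0.18 and −0.56 (SE 0.15). The interferon genes *IFI6* and *IFI27* had liver estimates of −1.80 (SE 0.44) and −1.52 (SE 0.43), and *ISG15* of −0.98 (SE 0.64). In these estimates the cows without B9 include B12 cows. From its liver arrays the study listed *IFI6*, *IFI27* and *ISG15* as higher with B12 than in control cows. Its qPCR did not bear this out for *IFI27* and *ISG15*. For *PLAC8B* the liver difference was −0.49 (SE 0.20). Limma's adjusted p of the difference between tissues was at least 0.476 for each of these genes.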

How the data were processed

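Total RNA of each biopsy was labelled with Cy3 and hybridised to a 1-colour array. The deposited scanner output holds the median fluorescence intensity of each spot and of its background, not normalized between arrays (Feature Extraction 10.7.3.1 per the file headers, 9.1 in the submitters' processing notes). The authors' table of log2 values (column medians 6.13 to 6.14, within a median of 0.00095 of normexp with an offset of 16 and quantiles) served as an alternative.

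Intensities were corrected with normexp (offset 50) and normalized by quantiles within each tissue. Outlier and control spots were left out and spots of a probe averaged. Limma 3.58.1 in R 4.3.3 fitted B9 and B12 additively, with Benjamini-Hochberg adjustment over 43653 probes. Further contrasts gave the effect without and with B12, the interaction and the difference from liver. Single genes were tested by exact permutation within each B12 level, two-sided. Names were paired with 11068 RefSeq symbols (53.9% of probes) of another build, so that no position is given, and a gene takes its brightest probe.

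Genes named were to be those past the threshold, filled to 12 a direction by lowest p among genes well above background in a group, with a difference of at least 0.5 and the same sign without and with B12. The genes the study named and leading members of 24 pathway and 12 marker lists (356 of 434 genes found) followed. Non-overlapping genes were added after their values were seen. The members and lists were chosen with earlier results of these data known. Alternatives were Cyber-T (used in the study), other background corrections and scalings, a filter on dim probes, the slide as a block and each array left out.

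The tests were tried on simulated data. The number of arrays limits the precision, and p-values measure the spread between cows. Since 12 cows gave both tissues, it was checked whether a cow deviated from its group means alike in each tissue (correlations of −0.245 to 0.262, median 0.037, above 0.1 in 4, against a median of 0.002 between cows), and the own cow was the highest in 1 of 12 pairs. The most alike pair of arrays correlated at 0.993, and none was treated as a duplicate. Some genes of the lists are not reported here by name.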

Additional observations from a re-analysis of the deposited data

Results flagged for a closer look

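Of 146 groups of arrays examined, 16 had a highest or lowest array far from the others, where chance gives about 1 in 20. Among arrays with B9, *RRAGD* was 11.20 in B9 cow 39 (next 9.75), *APOA1* 10.97 in B9 + B12 cow 31 (next 9.16), *PMPCB* 11.25 in B9 + B12 cow 32 (next 10.98) and *ILF2* 9.31 in B9 cow 41 (next 9.61). Among arrays without B9, *GSTO1* was 6.24 in Ctl cow 43 (next 9.002), *SORBS3* 14.21 in B12 cow 36 (next 13.14) and *ELF5* 15.57 in B12 cow 37 (next 15.27).

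The other 9 were mean log2 levels of lists. B12 cow 52 was highest for collagen and matrix genes (10.69, next 10.06) and for fibroblast markers (10.67, next 10.12), lists that share members. B12 cow 36 was highest for erythroid markers (9.11, next 7.76) and lowest for milk fat globule genes (12.63, next 12.92). B9 cow 57 was lowest for erythroid markers (7.17, next 7.54) and for folate cycle genes (8.20, next 8.25). B12 cow 40 was highest for B12 handling genes (9.96, next 9.87), Ctl cow 43 for B and plasma cell markers (8.36, next 8.04) and B9 + B12 cow 31 for cell division genes (6.72, next 6.45). Of the genes named, 0 had an adjusted limma p of at most 0.05 for the interaction or for the difference between tissues.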

How the results depend on the processing

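The number of probes past the threshold for the main effect was 0 under all 17 alternatives and without each of the 13 arrays, while the count at an unadjusted p under 0.05 ran from 1234 to 2065 without single arrays and was 2411 with the slide as a fixed block. With the probes of each gene averaged it was 449 of 11068 genes. Without Ctl cow 43, 1 probe (XM_873176, −1.06) passed for B9 minus Ctl, with an adjusted p of 0.00924 from limma, so that this count was 0 to 1 over single arrays left out. The 24 genes filled in by p gave 720 values over 30 settings, of which 1 reversed, *SERPINA3-3* at −0.049 without cows 57 and 31, an alternative added after the data were seen. These genes were chosen for size and like sign on the same arrays. Few reversals follow from that choice and are no measure of how stable the directions are. *LALBA* was −0.067 with the processed signal and −0.0018 with scaling to the 75th percentile, and *B4GALT1* ran from −0.084 to 0.27 without single arrays.

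Scaling to the 75th percentile lowered the median probe by 0.12, and list medians became −0.16 for adipocyte, −0.062 for methionine cycle, −0.16 for cell division, −0.20 for skeletal muscle, −0.25 for acute phase and −0.24 for interferon genes. The filter on dim probes gave −0.017 for methyltransferases and a same-sign share of 48.2% between the parts without and with B12, and the slide as a fixed block gave −0.032 for lactogenic signalling and 38.4%. Averaged probes gave −0.016 for folate cycle, −0.032 for lactogenic signalling and −0.027 for methyltransferases. Without cows 57 and 31 the medians were −0.22 for folate uptake, 0.043 for hepatocyte, 0.044 for lactogenic signalling and −0.024 for methyltransferases. Without single arrays the same-sign share was 47.0% to 51.7%, and medians ran from −0.147 to −0.036 for B12 handling, −0.082 to 0.0032 for folate cycle, 0.13 to 0.54 for hepatocyte, −0.086 to 0.011 for lactogenic signalling and −0.095 to 0.0019 for methyltransferases. The cause of these shifts was not tested.

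With the cow as a replicate block, which pairs both tissues, 0 probes passed for the difference between tissues, with a lowest adjusted limma p of 0.487 and 4393 probes at an unadjusted p under 0.05, and the block changed no call of this comparison, the only one fitted with it. Signal over background was 2.92 to 5.06.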
